A study of Sus scrofa with 12 samples.

Results

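Marker genes of macrophages and lymphocytes were followed in the liver of Jinhua (JH) and Landrace (LD) pigs. The set holds 38 gene symbols chosen as markers of macrophages, T cells, B cells and cytotoxic lymphocytes. Of these, 36 were found among the 31694 genes of the mRNA data, and CD68, a lysosomal glycoprotein of macrophages, and CYBB, a subunit of the phagocyte oxidase, are not analysed here. CD163, a scavenger receptor of macrophages, is listed at 0 in all 6 libraries. The other 35 genes passed the minimum of 0.5 RPKM, reads scaled for gene length and for the total reads of the library, in at least 3 libraries and were tested. They fell into 15 macrophage, 10 T cell, 3 B cell and 4 cytotoxic genes, and PTPRC, ITGB2 and CXCR4, which more than 1 of these classes expresses, were kept apart as 3 shared leukocyte genes. The breeds were represented by 3 JH pigs, a slow-growing and fat Chinese breed, and 3 LD pigs, a lean and fast-growing breed that served as the control. All 6 were uncastrated males of 70 days of age, with no treatment named, and each gave 1 mRNA library of whole liver, with no sorting of cells stated. Each group is thus 3 pigs of 1 breed, and anything else that differed between the groups cannot be told apart from breed.

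The liver holds the largest pool of resident macrophages in the body, the Kupffer cells, which line the sinusoids and take up bacteria, dying red cells and immune complexes from portal blood. They use scavenger and pattern receptors such as MARCO, CD14 and TLR4, and they make C1q, the first component of the classical complement pathway. The sinusoids also carry many lymphocytes, in particular cytotoxic T cells and natural killer cells, which kill through perforin and granzymes.

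As recovered from the RPKM values, the total reads behind a library were between 5744908 and 7914515. These totals are lower than the clean reads that the paper reports. Albumin and the other hepatocyte genes stood far above all other lists, with a summed level of 69862 to 81614 RPKM in JH and 85379 to 100495 RPKM in LD. RN18S, a ribosomal RNA gene and a sign of residual ribosomal RNA, ranged from 1570 RPKM in JH2 to 62257 RPKM in JH3. The library JH2 stood apart in the immune genes. It was the highest of the 6 libraries in 26 of 35 members (74.3%), against 22.8% of all tested genes, so the results are given with and without it. The values are from whole tissue, in which fewer cells of a type and less RNA per cell cannot be told apart. The p-values measure the spread between these 6 pigs only.

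The study set the breeds against each other for their fat deposition, and the same contrast is read here in the immune marker genes. None of the 35 members was differentially expressed, that is, past a Benjamini-Hochberg adjusted p of 0.05 and an absolute log2 fold change of 1 in limma. Among all 12993 tested genes, 310 (2.39%) passed, with JH above LD in 133 (1.02%) and below it in 177 (1.36%). An unadjusted p below 0.05 was found for 4 members, against 17.9% of all genes. JH was the higher breed in C1QB and CSF1R, as in 8.35% of all genes, and the lower in CD5L and CD4, as in 9.51%. With voom, limma's weighting for read numbers, on whole reads recovered from the RPKM, 1 member, CD4, was called, against 3.15% of 12971 genes. The JH and LD values did not overlap in 2 members, CD5L and CD4, both with JH below LD. Over all genes this held for 23.4% in either direction and for 12.5% with JH below LD. With JH set over LD on the log2 scale, the fold change was above 0 in 20 members and below 0 in 15, where 47.1% of all genes were below 0. Its median was 0.11 over the members and 0.037 over all tested genes. By list, this median was -0.0043 for macrophage genes, 0.022 for T cell genes, 0.41 for B cell genes, 0.21 for cytotoxic genes and 0.11 for shared leukocyte genes.

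The error of these fold changes was large, with a median standard error (SE) of 0.41 on the log2 scale. Only C1QB, CSF1R, CD4 and GZMB had an absolute log2 fold change above 1. For 8 members, C1QC, VSIG4, TLR4, AIF1, SPI1, CD3D, IL7R and ITGB2, the 95% interval of the fold change lay within 1 on both sides of 0. For the other members it reached past 1 in at least 1 direction.

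**Figure D1:**
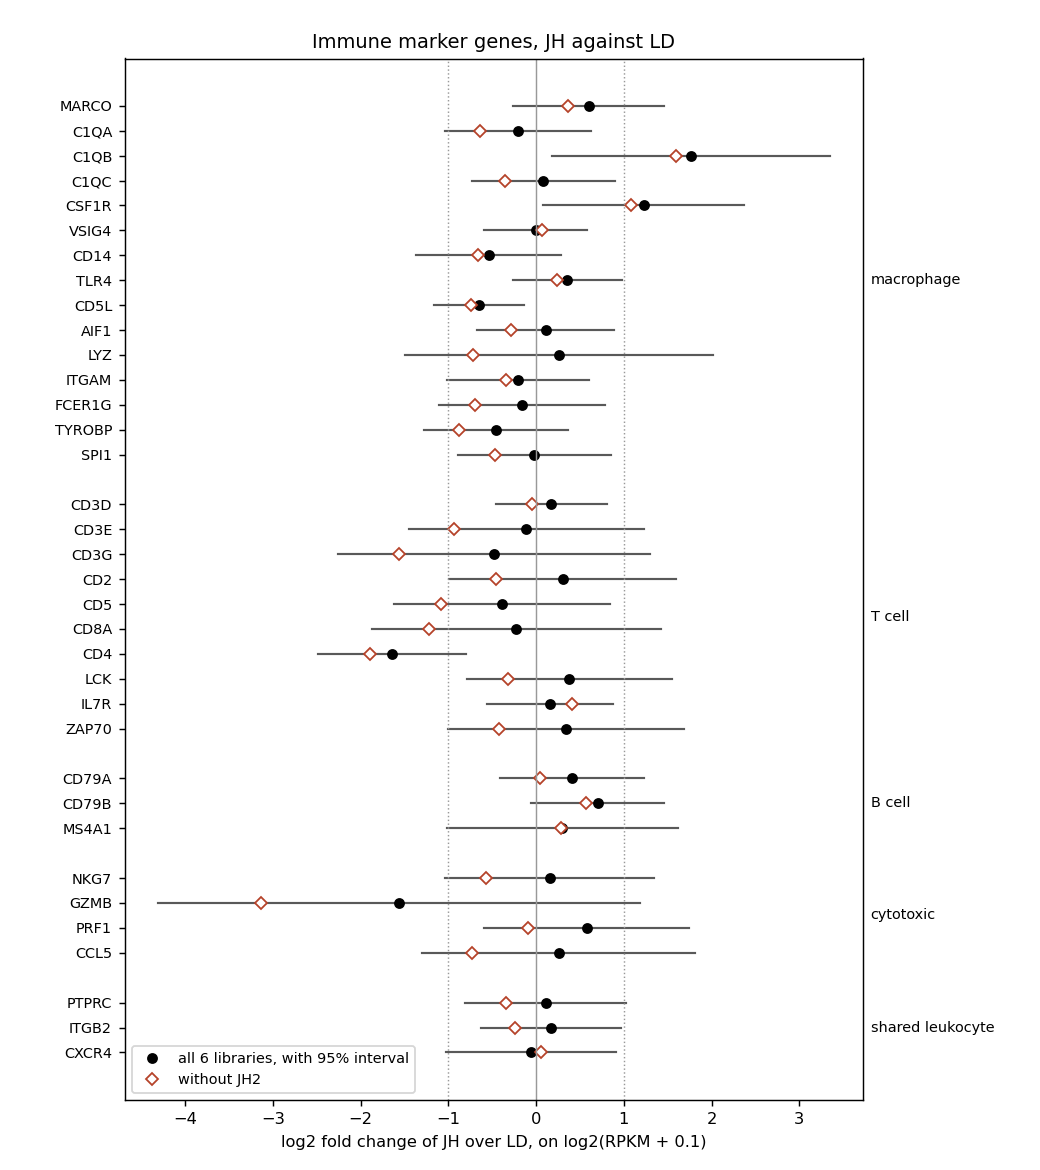
Fold change between the breeds (x axis, JH minus LD on log2(RPKM + 0.1)) of the 35 tested members, by list. Black points with bars give the value over 6 libraries with its 95% interval, open diamonds the value without JH2, and dotted lines a log2 fold change of 1 in either direction. Most bars cross 0, and in the T cell and cytotoxic lists every diamond but that of IL7R lies to the left of its point.

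Among the macrophage genes, C1QC and C1QA, chains of C1q, had the highest RPKM. C1q is put together from equal numbers of A, B and C chains, and RefSeq orders their genes C1QA, C1QC and C1QB next to each other. C1QA had an RPKM of 326, 705 and 249 in JH1, JH2 and JH3, and of 405, 444 and 486 in LD1, LD2 and LD3. C1QC was close to it in every library, at 356, 909 and 385 RPKM in JH and 435, 485 and 499 RPKM in LD, in the same order of libraries. For both genes JH2 was the highest and JH1 and JH3 the lowest libraries, with the LD libraries between them, so the groups overlapped. C1QA had a log2 fold change of -0.20 (SE 0.37) and C1QC one of 0.081 (SE 0.36), which turned to -0.051 under quantile normalization.

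C1QB did not follow the other chains and lay far below C1QA and C1QC in every library. Its RPKM was 25.7, 37.6 and 26.9 in JH1, JH2 and JH3, and 34.3, 3.42 and 5.49 in LD1, LD2 and LD3. LD2 and LD3 were low, while LD1 lay inside the range of the JH libraries, so the groups overlapped. The low values rested on 28 reads in LD2 and 45 reads in LD3, against 153 to 302 reads in the other libraries. The ratio of C1QB to C1QA was between 0.0533 and 0.108 in JH and 0.0845 in LD1, but 0.00772 in LD2 and 0.0113 in LD3. The ratio of C1QC to C1QA, in contrast, stayed between 1.03 and 1.55 in all libraries. On the log2 scale C1QB had a fold change of 1.76 (SE 0.70, adjusted p = 0.234 in limma). Without LD1 it was 2.74 and was called (adjusted p = 0.0200 in limma, range of 0.0200 to 0.493 over 15 alternatives). Without LD2 it was 1.102 (adjusted p = 0.493 in limma) and without LD3 1.43. Neither the low level of C1QB against the other chains in all libraries nor what sets LD2 and LD3 apart was tested.

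**Figure D2:**
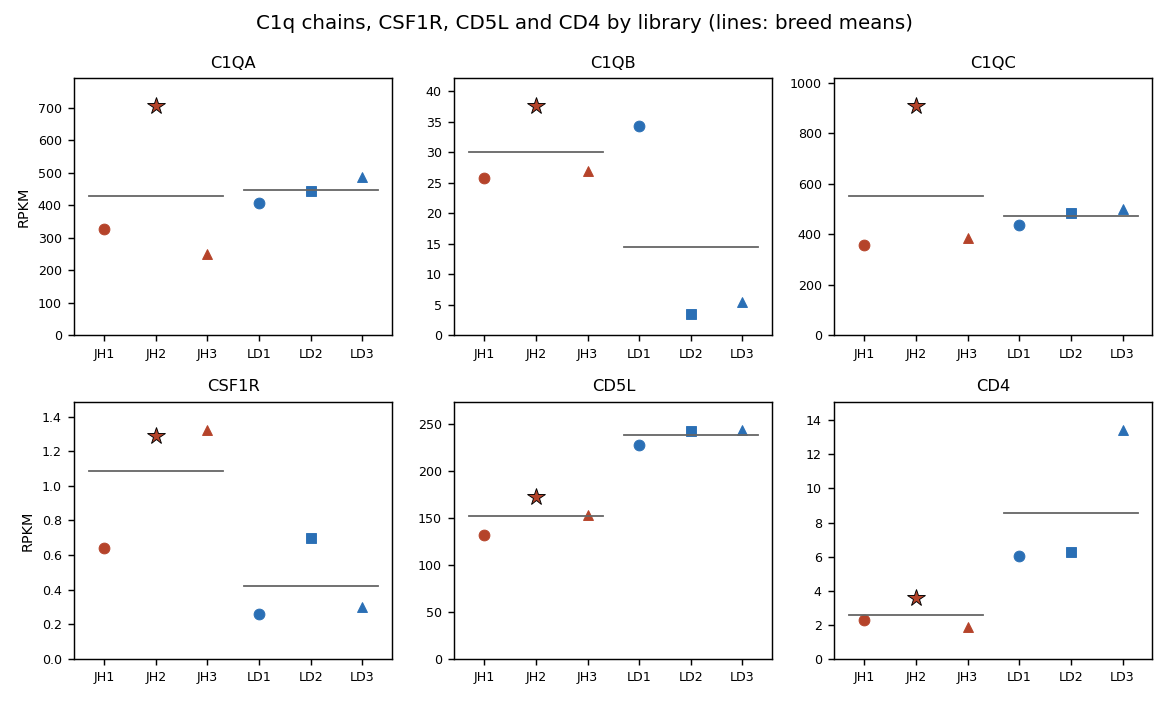
RPKM (y axis, from 0) of the C1q chains, CSF1R, CD5L and CD4 in each library, with JH in red, LD in blue, JH2 as a star and the breed mean as a line. C1QB is low in LD2 and LD3 where C1QA and C1QC are not, and all JH points lie below all LD points for CD5L and CD4.

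CD14 and TLR4 act together as the receptor for bacterial lipopolysaccharide, with CD14 handing the ligand over to TLR4. CD14 was nearly as abundant as C1QA and C1QC, at 432, 351 and 171 RPKM in JH1, JH2 and JH3 and 403, 559 and 355 RPKM in LD1, LD2 and LD3. JH3 was the lowest library and LD2 the highest, and the groups overlapped (log2 fold change -0.54, SE 0.37). TLR4 ranged from 2.90 to 5.60 RPKM, with a log2 fold change of 0.36 (SE 0.28). MARCO, a scavenger receptor for unopsonised particles, had 9.65, 24.8 and 24.0 RPKM in JH and 9.17, 14.3 and 12.5 RPKM in LD, in the order of the replicate numbers. JH2 and JH3 were above all LD libraries and JH1 was not, and the log2 fold change was 0.60 (SE 0.38). VSIG4, a complement receptor by which Kupffer cells catch C3b-coated bacteria, had the log2 fold change nearest to 0 of the macrophage genes (-0.0043, SE 0.26), at 16.7, 14.8 and 17.9 RPKM in JH and 15.8, 13.001 and 21.7 RPKM in LD.

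CD5L, a secreted protein that tissue macrophages make and that travels in blood with IgM, separated the breeds. Its RPKM was 132, 173 and 153 in JH1, JH2 and JH3, and 228, 242 and 244 in LD1, LD2 and LD3. All JH values were below all LD values, and the spread within each breed was small, with a mean of 153 ± 20.3 RPKM for JH and 238 ± 9.06 RPKM for LD (SD, n = 3 each). CD5L had a log2 fold change of -0.65 (SE 0.23), with an adjusted p of 0.179 in limma and 0.1 in a two-sided exact permutation test, the smallest p that 3 against 3 pigs allow. Over 15 alternatives the log2 fold change stayed between -0.74 and -0.55 and the adjusted p between 0.104 and 0.390, so CD5L was never called. At least 1995 reads lay behind each value.

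CSF1R, the receptor on which macrophages depend for survival, was low in the liver, at 0.640, 1.29 and 1.32 RPKM in JH1, JH2 and JH3 and 0.259, 0.699 and 0.299 RPKM in LD1, LD2 and LD3. The values came from 7 to 39 reads a library. JH2 and JH3 were above all LD libraries, while JH1 lay below LD2. This gave a log2 fold change of 1.23 (SE 0.51, adjusted p = 0.251 in limma). SPI1, which encodes PU.1, the transcription factor that specifies the myeloid lineage, showed 17.3, 35.9 and 11.6 RPKM in JH and 22.6, 20.2 and 16.7 RPKM in LD, and JH2 and JH3 were its highest and lowest libraries. SPI1 had a log2 fold change of -0.024 (SE 0.39).

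FCER1G and TYROBP encode the adaptor chains through which Fc receptors and other activating receptors signal in myeloid and natural killer cells. FCER1G was at 27.7, 82.4 and 25.9 RPKM in JH1, JH2 and JH3 and at 40.1, 41.4 and 49.5 RPKM in LD1, LD2 and LD3. TYROBP was at 18.9, 39.2 and 14.0 RPKM in JH and 26.6, 32.1 and 31.7 RPKM in LD. Both shared the pattern of C1QA, with JH2 above and JH1 and JH3 below all LD libraries. Their log2 fold changes were -0.16 (SE 0.42) and -0.46 (SE 0.36), and without JH2 they were -0.70 and -0.88.

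AIF1, a calcium-binding protein of macrophages also known as IBA1, ranged from 18.0 to 45.1 RPKM, with JH2 highest. ITGAM, the CD11b integrin chain, was low at 1.28 to 2.66 RPKM, with LD3 highest. LYZ, the bactericidal enzyme lysozyme, had 1.93, 20.0 and 3.27 RPKM in JH and 5.57, 2.004 and 6.60 RPKM in LD, and the JH2 value was more than 2 times the next. Neutrophils also hold lysozyme, and the summed level of 10 neutrophil genes, of 12 listed, was 7.91 to 15.6 RPKM in JH and 8.10 to 45.2 RPKM in LD, highest in LD3. The neutrophil marker CSF3R is listed at 0 in all libraries. The part of neutrophils in the LYZ values was not tested. In the RefSeq annotation of the later assembly, AIF1 overlaps LST1 and NCR3, and MARCO, ITGAM, IL7R and ITGB2 overlap unnamed genes. Only whole gene spans were compared, and no use of strand is stated. Whether these genes shared reads was not tested.

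The T cell genes were low in the liver, with a summed level of 21.1, 88.1 and 23.3 RPKM in JH1, JH2 and JH3 and 36.2, 36.1 and 42.0 RPKM in LD1, LD2 and LD3. The macrophage genes summed to 1391, 2447 and 1107 RPKM in JH and 1650.2, 1888 and 1761 RPKM in LD. JH2 was thus the highest library and JH1 and JH3 the lowest in both sums, more widely spread for T cells. C1QA, C1QC, CD14 and CD5L made up most of the macrophage sum. JH1 and JH3 were both below all LD libraries in 5 of 15 macrophage genes and 6 of 10 T cell genes, against 18.5% of all tested genes. These counts leave out JH2, which was singled out by the values of these same genes, so the share of all genes cannot show an excess. With JH2 kept, all JH values were below all LD values in 1 macrophage gene and 1 T cell gene. Over all tested genes this held for 12.5%.

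CD3D, CD3E and CD3G encode the chains that carry the signal of the T cell receptor, and their genes lie side by side in the RefSeq order. CD3E had an RPKM of 2.40, 14.0 and 2.52 in JH1, JH2 and JH3, and of 4.92, 5.55 and 3.9997 in LD1, LD2 and LD3. CD3G had 1.07, 8.51 and 0.596 RPKM in JH and 3.25, 1.85 and 2.81 RPKM in LD. In both genes JH2 was the highest library, and JH1 and JH3 were below all LD libraries. The CD3G values of JH1 and JH3 rested on 8 and 6 reads, against 19 to 30 reads a library in LD. CD3D varied much less, at 2.79, 4.76 and 3.18 RPKM in JH and 3.39, 3.05 and 2.84 RPKM in LD, although JH2 was again highest. On the log2 scale the fold changes were -0.11 (SE 0.59) for CD3E, -0.48 (SE 0.79) for CD3G and 0.17 (SE 0.28) for CD3D. Without JH2 they were -0.93, -1.56 and -0.048, none of them called.

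CD4 encodes a coreceptor of T cells, and CD8A a chain of the coreceptor CD8. CD8A had an RPKM of 1.117, 13.9 and 2.43 in JH1, JH2 and JH3, and of 4.52, 4.36 and 3.24 in LD1, LD2 and LD3, the pattern of CD3E. CD4 had an RPKM of 2.29, 3.55 and 1.89 in JH1, JH2 and JH3, and of 6.02, 6.25 and 13.5 in LD1, LD2 and LD3. All JH values of CD4 were below all LD values, JH2 included, and LD3 was the highest library. JH pigs averaged 2.58 ± 0.863 RPKM and LD pigs 8.58 ± 4.23 RPKM (SD, n = 3 each), from 44 to 92 reads a library in JH and 143 to 356 in LD.

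CD4 had the lowest adjusted p of the members, 0.0586 in limma, with a log2 fold change of -1.64 (SE 0.37, 95% interval from -2.48 to -0.80), and thus just missed the threshold. The two-sided exact permutation test gave p = 0.1, the smallest that 3 against 3 pigs allow. With voom on recovered reads CD4 was called, with a log2 fold change of -1.67 (adjusted p = 0.0353). Over 15 alternatives the log2 fold change ranged from -1.89 to -1.27 and the adjusted p from 0.0353 to 0.143, and voom was the only one that called it. The ratio of CD4 to CD3D was between 0.596 and 0.820 in JH and between 1.78 and 4.74 in LD. The ratio of CD8A to CD3E was between 0.465 and 0.991 in JH and between 0.785 and 0.920 in LD, and so overlapped. CD4 to CD8A overlapped as well, at 0.255 to 2.05 in JH and 1.33 to 4.15 in LD. These ratios were chosen after the values had been seen.

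Some markers of other cells were also lower in the JH libraries. The 9 erythroid and platelet genes in the files, of 12 listed, summed to 95.2 to 127 RPKM in JH and 219 to 399.7 RPKM in LD. The platelet genes PPBP and PF4 are listed at 0 in all libraries. Most of each sum was HBB, a chain of haemoglobin, at 89.1 to 119 RPKM in JH and 210 to 389 RPKM in LD. HBB was called, with JH below LD (log2 fold change -1.39, adjusted p = 0.0459 in limma, called in 7 of 15 alternatives). In this list 4 genes were tested, and the breeds did not overlap in 3, against 23.4% of all tested genes. JH was below LD in 2 of these and above it in 1, the platelet gene ITGA2B (2.20, 2.29 and 2.68 RPKM in JH, 1.69, 1.90 and 1.22 RPKM in LD). The 10 stellate and fibroblast genes summed to 87.1 to 106 RPKM in JH and 202 to 399 RPKM in LD. Of these 10, 4 were called, COL1A1, COL1A2, COL3A1 and LRAT, with JH below LD. HBB was 1 of 4 tested in its list. Over all tested genes, 1.36% were called with JH below LD. Over 15 alternatives COL1A1 was called in 15, COL3A1 in 13, COL1A2 in 9 and LRAT in 6. The sums of 9 hepatocyte genes given above did not overlap between the breeds either, although APOA1 was higher in JH (22277, 16075 and 10301 RPKM) than in LD (7613, 10116 and 7399 RPKM) with no overlap. The sum of 8 endothelial genes overlapped, at 184 to 294 RPKM in JH and 232 to 289 RPKM in LD. CLEC4G made up most of this sum. In 3 of the 8, PECAM1, KDR and ERG, all JH values were below all LD values, against 12.5% of all tested genes. In 0 of the 8 were all JH values above all LD values. The part of these cells in the CD4 and CD5L values was not tested.

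LCK and ZAP70 are the kinases that start signalling below the T cell receptor. LCK had 2.33, 11.3 and 2.80 RPKM in JH and 3.25, 3.39 and 3.03 RPKM in LD, and ZAP70 had 1.33, 6.12 and 1.04 RPKM in JH and 1.64, 2.21 and 1.13 RPKM in LD, in the order of the replicate numbers. JH2 stood out in both, more than 2 times above the next library. CD2, an adhesion receptor of T and natural killer cells, was at 3.40, 20.7 and 5.18 RPKM in JH and 5.23, 4.71 and 7.90 RPKM in LD, and CD5, a brake on T cell receptor signalling, was at 0.650, 3.44 and 0.827 RPKM in JH and 1.502, 1.89 and 1.62 RPKM in LD. IL7R, the receptor for the survival cytokine of naive and memory T cells, was the exception: JH1 was its highest library and JH2 its lowest, with 3.72, 1.88 and 2.81 RPKM in JH and 2.51, 2.85 and 1.98 RPKM in LD. The log2 fold changes of these genes lay between -0.39 for CD5 and 0.38 for LCK, with SE between 0.32 and 0.60.

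**Figure D3:**
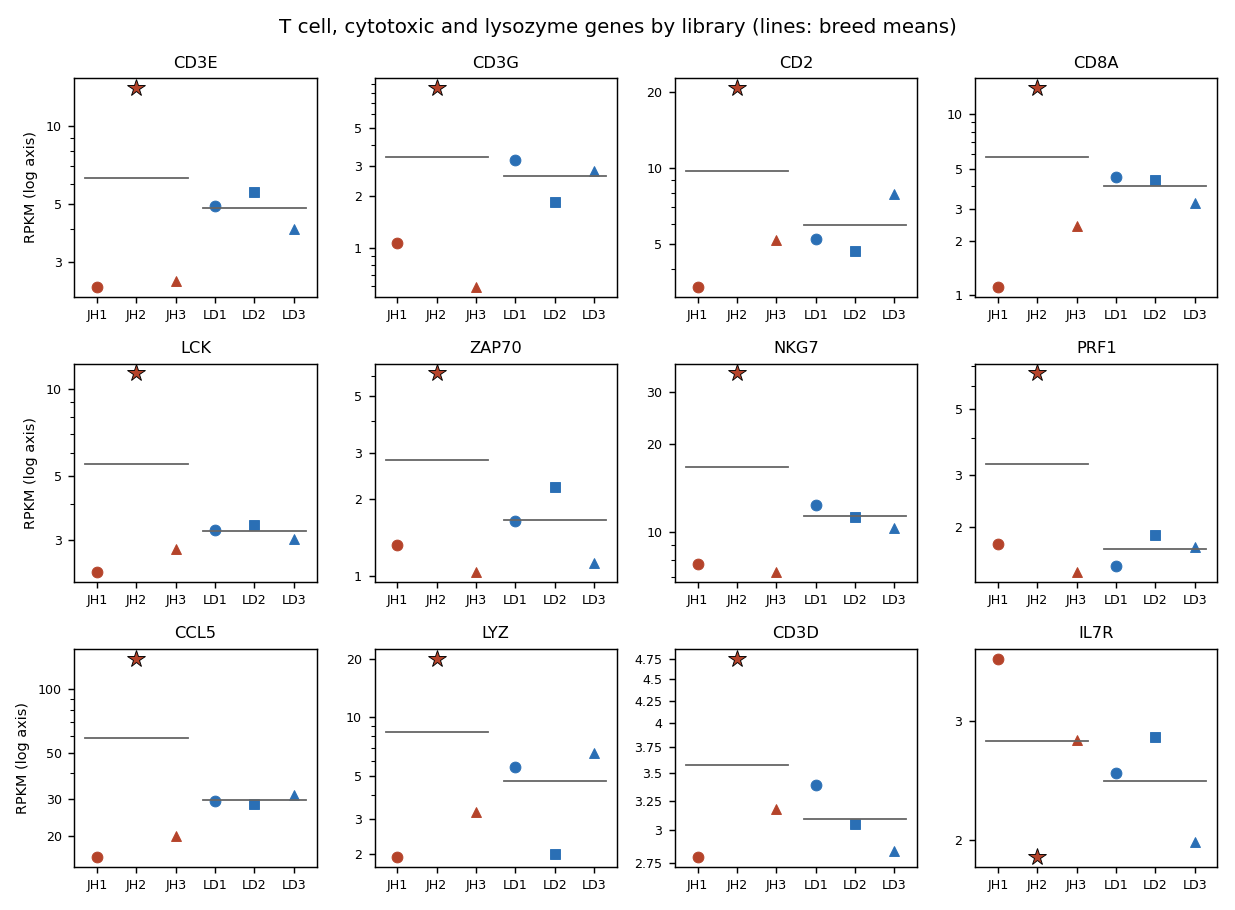
RPKM on a log axis of 12 members in each library, with JH in red, LD in blue, JH2 as a star and breed means as lines. JH2 is the highest point in every panel but that of IL7R, and in CD3E, CD3G, CD8A, LCK, NKG7 and CCL5 the JH1 and JH3 points lie below all LD points.

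The B cell genes were sparse. CD79A and CD79B encode the signalling chains of the B cell receptor. CD79A had 2.57, 5.12 and 2.11 RPKM in JH and 2.85, 1.87 and 2.16 RPKM in LD, with JH2 highest. CD79B had 2.75, 2.85 and 1.63 RPKM in JH1, JH2 and JH3 and 1.78, 1.101 and 1.40 RPKM in LD1, LD2 and LD3, with JH1 and JH2 above all LD libraries and JH3 below LD1. Their log2 fold changes were 0.41 (SE 0.36) and 0.70 (SE 0.34, adjusted p = 0.318 in limma). MS4A1, which encodes CD20, had 0.802, 0.918 and 0.974 RPKM in JH and 1.24, 0.212 and 1.16 RPKM in LD, and the low LD2 value rested on 4 reads. MS4A1 overlaps MS4A4A in the RefSeq annotation of the later assembly.

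In the cytotoxic list JH2 was more than 2 times above the next library in 4 of 4 genes. PRF1 encodes perforin, which opens the membrane of the target cell, and GZMB encodes granzyme B, the protease that enters through it. PRF1 was at 1.74, 6.62 and 1.41 RPKM in JH1, JH2 and JH3 and 1.47, 1.87 and 1.70 RPKM in LD1, LD2 and LD3. JH2 was far above the other 5 libraries, which lay between 1.41 and 1.87 RPKM. GZMB was at 0, 7.10 and 0.659 RPKM in JH and 2.30, 1.81 and 2.96 RPKM in LD, from 0, 54 and 5 reads in JH and 16, 14 and 23 reads in LD. The 0 in JH1 allows up to 0.532 RPKM at a limit of 3 reads, so JH1 and JH3 were both below every LD library and JH2 above. The log2 fold change of GZMB, -1.56 (SE 1.22), depends on the pseudocount because of this 0. It was -0.045 without JH1 and -3.13 without JH2. GZMH, the granzyme gene next to GZMB, is listed at 0, and related granzymes could share reads.

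NKG7, a protein of cytotoxic granules, was at 7.78, 34.7 and 7.30 RPKM in JH and 12.3, 11.2 and 10.3 RPKM in LD. CCL5, the chemokine RANTES that cytotoxic lymphocytes store and release, was the most abundant lymphocyte gene, at 15.9, 140.3 and 20.0 RPKM in JH and 29.5, 28.4 and 31.2 RPKM in LD. In both, the LD libraries were close together, JH2 was more than 2 times above them, and JH1 and JH3 were below them. For CCL5, JH pigs averaged 58.7 ± 70.7 RPKM and LD pigs 29.7 ± 1.42 RPKM (SD, n = 3 each). NKG7 and CCL5 had log2 fold changes of 0.15 (SE 0.53) and 0.26 (SE 0.69), and without JH2 they were -0.57 and -0.73.

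Of the shared leukocyte genes, PTPRC encodes CD45, the phosphatase carried by leukocytes, and ITGB2 the common chain of the leukocyte integrins. PTPRC was at 7.14, 22.1 and 10.4 RPKM in JH and 11.9, 8.13 and 13.6 RPKM in LD, and ITGB2 at 10.5, 26.7 and 12.5 RPKM in JH and 14.5, 11.3 and 15.1 RPKM in LD. JH2 was the highest library in both. CXCR4, the receptor for the chemokine CXCL12, did not share this order, at 4.26, 2.43 and 2.19 RPKM in JH and 1.72, 2.74 and 5.35 RPKM in LD, with LD3 highest. None of the 3 had an absolute log2 fold change above 0.17.

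**Figure D4:**
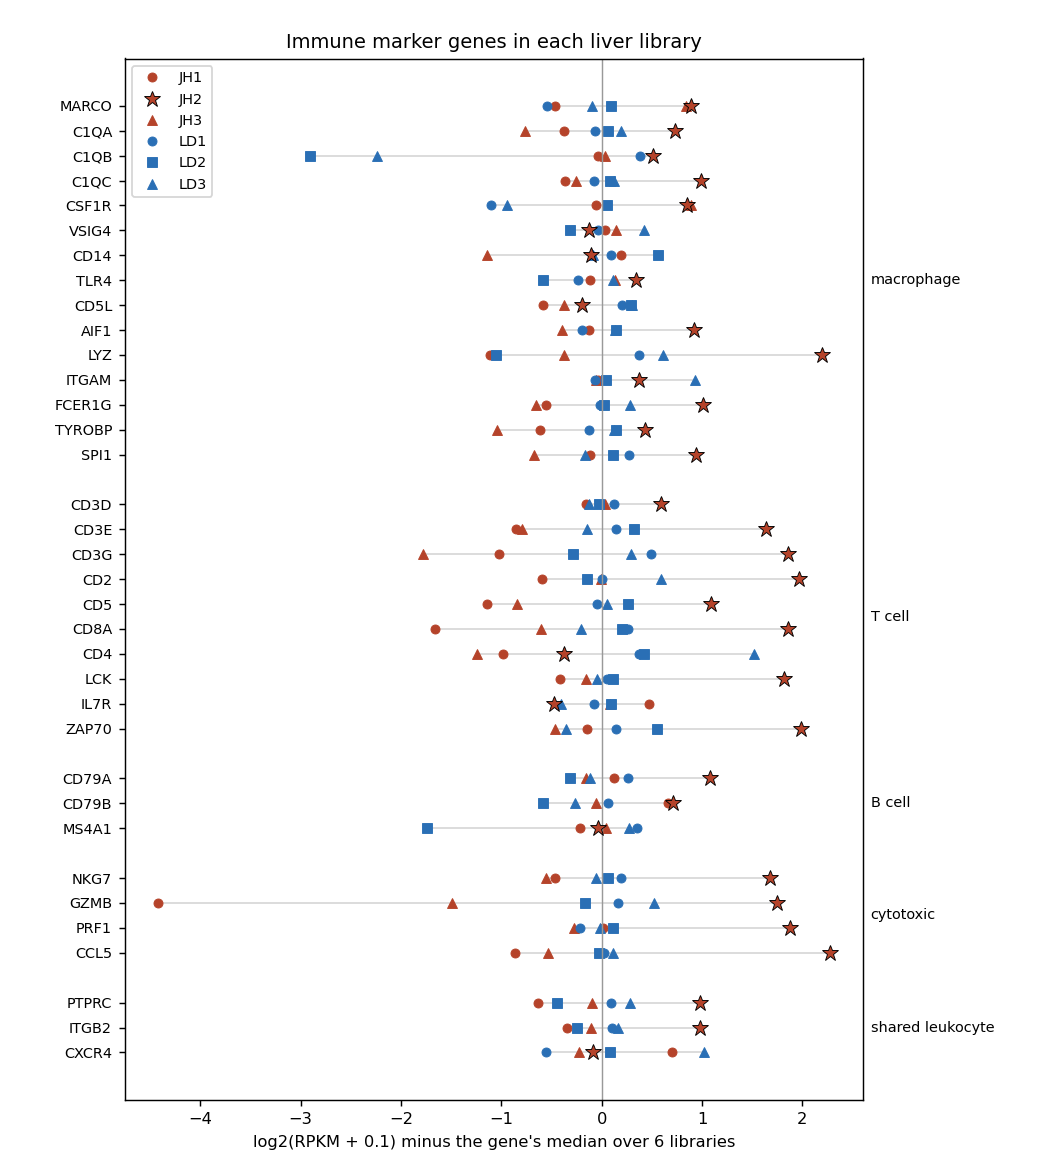
Level of each of the 35 tested members in each library as log2(RPKM + 0.1) minus the median of the gene over 6 libraries (x axis), with JH in red, LD in blue and JH2 as a star. JH2 is the rightmost point in 26 genes, most widely apart among the T cell and cytotoxic genes, and the rightmost in none of CSF1R, VSIG4, CD5L, CD14, ITGAM, CD4, IL7R, MS4A1 and CXCR4.

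Within JH, the library JH2 stood apart from JH1 and JH3 in most members. It was the highest of 6 libraries in 10 of 15 macrophage, 8 of 10 T cell, 2 of 3 B cell, 4 of 4 cytotoxic and 2 of 3 shared leukocyte genes. The exceptions were CSF1R, VSIG4, CD5L, CD14, ITGAM, CD4, IL7R, MS4A1 and CXCR4. JH2 was more than 2 times above the next library in 11 members (31.4%), against 1.29% of all tested genes. These were LYZ, CD3E, CD3G, CD2, CD8A, LCK, ZAP70, NKG7, GZMB, PRF1 and CCL5. Against the median of the other 5 libraries, the median gene was 3.62 times higher in JH2 in the T cell list, 3.90 times in the cytotoxic list, 1.74 times in the macrophage list and 1.75 times in the B cell list, where the median of all tested genes was 1.13 times. JH2 also had the lowest RN18S value of the 6 libraries. The part of ribosomal RNA content in these values was not tested.

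Since JH2 was singled out for its high values in these genes, leaving it out lowers the JH side of most members by construction. The values without it are a description of the other 5 libraries, and p-values without it are no test of these members. JH2 was not picked by the values of all tested genes. The shares of all genes printed below therefore cannot show an excess in the members. Fold changes on the log2 scale were then below 0 in 25 of 35 members, against 51.6% of all tested genes, and their median was -0.35, against -0.021 for all. With another library left out they were below 0 in 11 members (without JH1), 8 (JH3), 15 (LD1), 18 (LD2) or 12 (LD3), with a median from -0.0038 to 0.33. Without JH2 they were below 0 in 10 of 15 macrophage genes, 9 of 10 T cell genes, 4 of 4 cytotoxic genes and 2 of 3 shared leukocyte genes, but in 0 of 3 B cell genes. The median was -0.69 in the T cell list and -0.65 in the cytotoxic list. JH1 and JH3 were both below all LD libraries in 14 members (40%), against 18.5% of all tested genes. These were C1QA, C1QC, CD5L, FCER1G, TYROBP, CD3E, CD3G, CD5, CD8A, CD4, LCK, NKG7, GZMB and CCL5. Few reads lay behind some of them in JH1 and JH3, such as 8 and 6 for CD3G, 7 and 12 for CD5 and 0 and 5 for GZMB. An unadjusted p below 0.05 was reached by 10 members, all lower in JH, against 9.1% of all genes in that direction. None of them passed the adjusted threshold in limma, where 150 of all genes (1.15%) did. Without JH2 the log2 fold changes were -1.22 for CD8A, -1.08 for CD5, -1.89 for CD4 (adjusted p = 0.0694) and -3.13 for GZMB, with 2 JH pigs against 3 LD pigs.

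Other genes of the same pathways, from hand-made lists, gave no call on the scale used here, where 2.39% of all tested genes were called. CXCL12, the ligand of CXCR4, just missed it (adjusted p = 0.0586 in limma) and was the 1 gene called under quantile normalization (adjusted p = 0.0207), under median scaling (adjusted p = 0.0321) and with voom on recovered reads (adjusted p = 0.0368). Of all 12993 tested genes, 398 were called under quantile normalization and 384 under median scaling. With voom 409 of 12971 (3.15%) were called. The lists covered 73 tested genes, namely 13 further macrophage genes, 7 kinases and partners of the ITAM and Fc receptor pathway, 4 oxidase partners of CYBB, 10 genes of the TLR4 and CD14 pathway, 1 ligand of CSF1R, 1 partner of C1q, 11 genes of T cell receptor signalling, 8 cytotoxic partners, 4 B and plasma cell genes and 14 chemokines and receptors. An unadjusted p below 0.05 was found for 9 of the 73 (12.3%), against 17.9% of all genes, and they are named here after their values were seen. With JH below LD these were SYK and PLCG2, which relay the signal of FCER1G and TYROBP, MPEG1, a pore protein of macrophages, LBP, which brings lipopolysaccharide to CD14, and CXCL12. With JH above LD they were LY96, the partner of TLR4 that binds lipopolysaccharide, NFKBIA, the inhibitor of NF-kappaB, and the cytotoxic lymphocyte genes KLRB1 and GZMA. GZMA was at 7.53 RPKM in JH2 and at no more than 1.77 RPKM in any other library, and its log2 fold change was 1.41 and without JH2 0.62. JH2 was the highest library in 8 of 8 cytotoxic partners, 9 of 11 T cell receptor signalling genes and 8 of 13 further macrophage genes. So it was in 4 of 4 oxidase partners, 5 of 7 kinases and partners, 3 of 4 B and plasma cell genes and 9 of 14 chemokines and receptors. Over all tested genes the share was 22.8%. It was highest in 0 of 6 neutrophil, 0 of 10 stellate and 1 of 8 endothelial genes. Against the median of the other 5 libraries, the median gene was 3.05 times higher in JH2 for B and plasma cells, 2.62 times for cytotoxic partners and 2.54 times for T cell receptor signalling. CXCL10, an interferon-induced chemokine that draws T cells, spread widely within JH, at 8.17, 227 and 102 RPKM in JH1, JH2 and JH3, with 48.9, 14.9 and 22.8 RPKM in LD.

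Small RNA libraries of the same names gave another readout of blood cells. Of 7 miRNAs known from blood cells, 6 were among the 411 in the data, all 6 of them tested, and ssc-miR-223 is not analysed here. The values are RPM, reads scaled to the clean reads of the library. Only ssc-miR-146b, 1 of the 6, was called at an adjusted p of 0.05 in limma, against 32 of 241 tested miRNAs (13.3%), with JH below LD in 30 (12.4%). Over all tested miRNAs the median log2 fold change was -0.30, so the list is also given relative to this median. The share of all tested miRNAs in which the breeds did not overlap was not counted. Non-overlap of single miRNAs is therefore given as description only.

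The miR-146 family restrains signalling below TLR4. In ssc-miR-146b the RPM was 21.6, 36.6 and 22.2 in JH1, JH2 and JH3, and 45.4, 55.1 and 63.3 in LD1, LD2 and LD3, with no overlap of the breeds. This was a log2 fold change of -1.04 (SE 0.26, adjusted p = 0.0237 in limma), -0.74 relative to the median of all. After scaling each library to its median, under which 4.15% of miRNAs were called, the call was lost (log2 fold change -0.65, adjusted p = 0.221 in limma). Over 11 alternatives the adjusted p ranged from 0.0133 to 0.221 with a call in 5. In ssc-miR-146a-5p the RPM was 247, 374 and 286 in JH and 579.6, 346 and 719 in LD, and JH2 lay above LD2 (log2 fold change -0.82, SE 0.30, adjusted p = 0.0910 in limma). It was called without LD2 (log2 fold change -1.11, adjusted p = 0.0325 in limma), and the fold change was -0.42 under median scaling, with adjusted p from 0.0325 to 0.486 over 11 alternatives.

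ssc-miR-142-3p and ssc-miR-142-5p come from 1 precursor that blood cells of many lineages express. The first was at 157, 116 and 79.2 RPM in JH and 90.8, 74.4 and 101 RPM in LD, highest in JH1, and the second at 70.8, 83.1 and 71.8 RPM in JH and 87.5, 85.4 and 92.4 RPM in LD, with all JH values below all LD values. Their log2 fold changes were 0.36 (SE 0.27) and -0.23 (SE 0.20), and the latter turned to 0.16 under median scaling. ssc-miR-150, abundant in mature lymphocytes, was at 54.1, 49.0 and 53.6 RPM in JH and 65.9, 84.4 and 73.9 RPM in LD, again with no overlap (log2 fold change -0.51, SE 0.21, adjusted p = 0.123 in limma). ssc-miR-155-5p, induced in activated lymphocytes and macrophages, was the only one of the 6 with its highest value in JH2, at 178, 263 and 147 RPM in JH and 225, 188 and 262 RPM in LD. Its log2 fold change was -0.23 (SE 0.26), and it turned to 0.17 under median scaling. Relative to the median of all tested miRNAs, the log2 fold changes were 0.66 for ssc-miR-142-3p, 0.067 for ssc-miR-142-5p, -0.21 for ssc-miR-150, 0.075 for ssc-miR-155-5p and -0.51 for ssc-miR-146a-5p. JH2, the highest library in most T cell and cytotoxic mRNAs, was not the highest in ssc-miR-150 or the ssc-miR-142 pair.

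**Figure D5:**
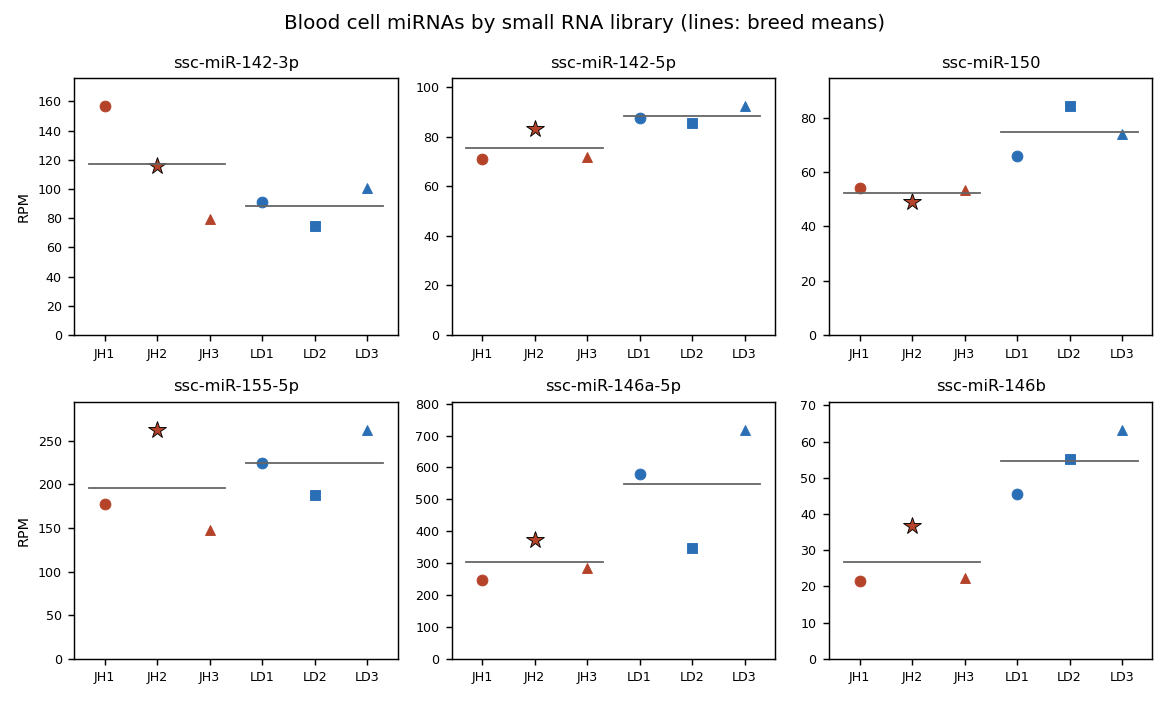
RPM (y axis, from 0) of the 6 blood cell miRNAs in each small RNA library, with JH in red, LD in blue, JH2 as a star and the breed mean as a line. All JH points lie below all LD points for ssc-miR-142-5p, ssc-miR-150 and ssc-miR-146b, and JH2 is the highest point for ssc-miR-155-5p alone. The share of all tested miRNAs with no overlap was not counted.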

How the data were processed

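Liver mRNA and small RNA of 3 JH and 3 LD pigs were sequenced as 50 bp single reads, 1 library of each kind per pig. The authors aligned the mRNA reads with TopHat2 2.0.13, counted them with gfold and deposited RPKM values. The deposited miRNA values are RPM. Groups came from the public labels. The genes and lists were chosen with earlier results of these data known.

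A gene was tested where 3 or more libraries reached an RPKM of 0.5. The test was limma 3.58.1 in R 4.3.3 (lmFit, eBayes with trend) on log2(RPKM + 0.1), a scale that understates the change of low genes. Calls needed an absolute log2 fold change above 1 and an adjusted p (Benjamini-Hochberg over all tested genes) below 0.05. For miRNAs the limit was 1 RPM, the scale log2(RPM + 0.5), and the call an adjusted p below 0.05. Single genes also had two-sided exact permutation tests. Whole reads were recovered from the RPKM for 19142 of 19614 genes above 0, with 99.978% of their values within 0.05 reads of a whole number, and cover counting error only. Scripts were tested on simulated data.

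The text names all 38 members, the listed miRNAs, RN18S, called genes of the other lists and some of the 3 highest genes of each such list. Ratios, counts of libraries and further genes were chosen after the values had been seen. Neighbours were read from RefSeq Sscrofa11.1, which matched 36 of 38 members. Because the files rest on an older build, positions are not printed. Alternatives tried were other pseudocounts and filters, quantile and median scaling, voom on recovered reads, the unadjusted p, the replicate block and leaving out each library.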

Additional observations from a re-analysis of the deposited data

How the results depend on the processing

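The number of differentially expressed genes over all tested genes, 310, was 199 with a pseudocount of 0.01, 200 with no filter on low values and 1290 with an unadjusted p and the fold limit, and leaving out 1 library gave 79 (without LD1) to 406 (without JH3), with 164 without JH1, 150 without JH2, 114 without LD2 and 149 without LD3. Of the members 0 were called, against 1 with voom (CD4, so 1 in the T cell list) and 3 with an unadjusted p (2 in the macrophage list and 1 in the T cell list). Leaving out 1 library gave 0 to 1, the 1 being C1QB, in the macrophage list, without LD1. Of the blood cell miRNAs 1 was called, against 0 with median scaling and 0 with the replicate block, and leaving out 1 library gave 0 to 1, with 0 without JH1, JH3 or LD3. Over up to 15 alternatives a gene, 37 of 523 fold changes of members turned direction and 11 members never did.

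The log2 fold change turned to -0.051 for C1QC and -0.027 for AIF1 under quantile normalization, and to 0.16 for ssc-miR-142-5p and 0.17 for ssc-miR-155-5p under median scaling. When 1 library was left out it ranged across 0 in the following members: C1QA -0.64 to 0.11, C1QC -0.35 to 0.33, VSIG4 -0.17 to 0.19, AIF1 -0.29 to 0.37, LYZ -0.72 to 0.93, ITGAM -0.39 to 0.11, FCER1G -0.70 to 0.13, SPI1 -0.47 to 0.34, CD3D -0.048 to 0.33, CD3E -0.93 to 0.32, CD3G -1.56 to 0.25, CD2 -0.46 to 0.83, CD5 -1.08 to 0.039, CD8A -1.22 to 0.54, LCK -0.32 to 0.79, IL7R -0.069 to 0.40, ZAP70 -0.42 to 0.80, MS4A1 -0.39 to 0.66, NKG7 -0.57 to 0.54, PRF1 -0.092 to 0.99, CCL5 -0.73 to 0.83, PTPRC -0.34 to 0.47, ITGB2 -0.24 to 0.43 and CXCR4 -0.42 to 0.37. The cause was not tested. JH and LD share the numbers 1 to 3. Over all tested genes the deviations of same-numbered libraries correlated weakly (mean r = 0.071, and 2 of 6 libraries correlated best with their own number). The highest correlation was that of JH3 with LD3 (r = 0.18). With 3 libraries a breed, these values cannot show whether same-numbered pigs share more than a number. With the replicate block 253 genes and 0 members were called.

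Depth limits the low genes most, since 6 members had under 10 reads in at least 1 library, and the 3 pigs a breed leave wide intervals.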
